A study of Mus musculus with 14 samples.

Results

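The genes of the BCL2 family that set whether a cell enters mitochondrial apoptosis were followed through all 7 groups of a knockdown experiment in a mouse acute myeloid leukemia (AML) line. The 10 genes were taken by symbol from the count table, which lists 53465 genes. They are the survival genes Bcl2, Bcl2l1 and Mcl1, the effectors Bax and Bak1, and the BH3-only genes Bid, Bad, Bcl2l11, Bbc3 and Pmaip1. Of these, 9 passed the filter on low counts that left 10791 genes for testing, and Pmaip1 did not.

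The line, KL974, carries the Trp53 R172H mutation and hairpins against Mll3 (Kmt2c) and Nf1 in every group, and it was grown with IL3, IL6 and SCF throughout. A second, lentiviral hairpin linked to blue fluorescent protein (BFP) was switched on with doxycycline and aimed at Ogdh, which encodes the E1 subunit of 2-oxoglutarate dehydrogenase. There were 14 libraries in 7 groups of 2: BFP positive cells with shOgdh346 at day 4, BFP positive cells with shOgdh2081 at day 4, and cells with the control hairpin shRen713 that were BFP positive at day 4, BFP negative at day 4, BFP positive at day 2, BFP negative at day 2, or untreated at day 0. BFP positive cells have the hairpin induced and were sorted. BFP negative cells, titled uninduced, were sorted too and come from the same kind of treated culture. The titles of the day 0 samples name no sort. In a comparison with day 0, the effects of time, of doxycycline and of sorting cannot be told apart. All libraries come from 1 line, and no label says that the replicates were separate cultures, so p-values reflect the spread among these samples alone, which may be a technical spread.

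In mitochondrial apoptosis, BAX and BAK1 form pores in the outer mitochondrial membrane that release cytochrome c and start the caspase cascade. BCL2, BCL-XL (the product of Bcl2l1) and MCL1 hold them in check, and the BH3-only proteins either block these survival proteins or activate the effectors directly. Myeloid progenitors and many AML cells are known to lean on MCL1, and in blood cells BIM (from Bcl2l11) is a chief mediator of death after cytokine withdrawal, while PUMA (from Bbc3) and NOXA (from Pmaip1) are classical targets of wild-type p53. Much of the regulation in this family acts on protein stability, phosphorylation and location, which transcript counts do not measure.

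Library totals ran over 913482 to 10271698 counts (11.2-fold), and each Ogdh hairpin had 1 deep and 1 shallow library (5680900 and 1159021 counts for shOgdh346, 913482 and 4627632 counts for shOgdh2081). Ogdh itself fell by 2.19 on the log2 scale over both hairpins (SE 0.09, edgeR adjusted p = 1.63e-30), and all 4 hairpin libraries held 51.5 to 60.8 CPM (read counts scaled to the depth of each library), against 247 and 267 CPM in control BFP positive cells at day 4. The labelled cell type was checked against marker lists. Of 14 myeloid markers, 1 passed the filter (Ptprc, CD45), 5 had no count in any library, including Elane, Itgam, Lyz2 and Ly6c2, and the list summed to 6.54 to 17.8 CPM per library, so defining myeloid markers were at or near 0. Erythroid markers summed to 3903 to 4107 CPM in the hairpin libraries, against 3425 and 3466 CPM in control BFP positive cells at day 4, and mast cell and basophil markers summed to 1365 to 1432 CPM, against 1240 and 1253 CPM. The part of these shifts in the results below was not tested, and in bulk RNA fewer cells of a type and less RNA per cell cannot be told apart.

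The transcripts of the family differed widely in level per length. On the scale of CPM per kilobase of deposited transcript length, Mcl1 came first, with a mean of 50.2 over the 14 libraries (range 45.4 to 55.4). Bak1 (26.6), Bid (26.3) and Bax (23.7) followed. Bad stood at 9.70, Bcl2l1 at 3.76, Bbc3 at 2.92, Bcl2l11 at 2.47, Bcl2 at 0.454 and Pmaip1 at 0.376 CPM per kilobase. Mcl1 was above Bak1 in 14 of 14 libraries, Bax was above Bad in 14, Bad was above Bcl2l1 in 14, Bcl2l1 was above Bbc3 in 13 and Bcl2l11 was above Bcl2 in 14. The neighbours Bak1 and Bid (Bak1 higher in 8 of 14 libraries), Bid and Bax (10 of 14), Bbc3 and Bcl2l11 (10 of 14) and Bcl2 and Pmaip1 (8 of 14) were not separated in every library. Among the 3 survival genes, Mcl1 made up 90.9% to 93.2% of their summed level per kilobase in each library. The lengths rest on the union of exons of several transcripts, so the order is that of the genes and not of their isoforms. The place of Bcl2l11 depended on that length: it was place 8 per kilobase but place 5 in CPM without division by length, where its mean of 19.8 CPM stood above Bad (19.5 CPM) and Bcl2l1 (17.2 CPM).

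**Figure D1:**
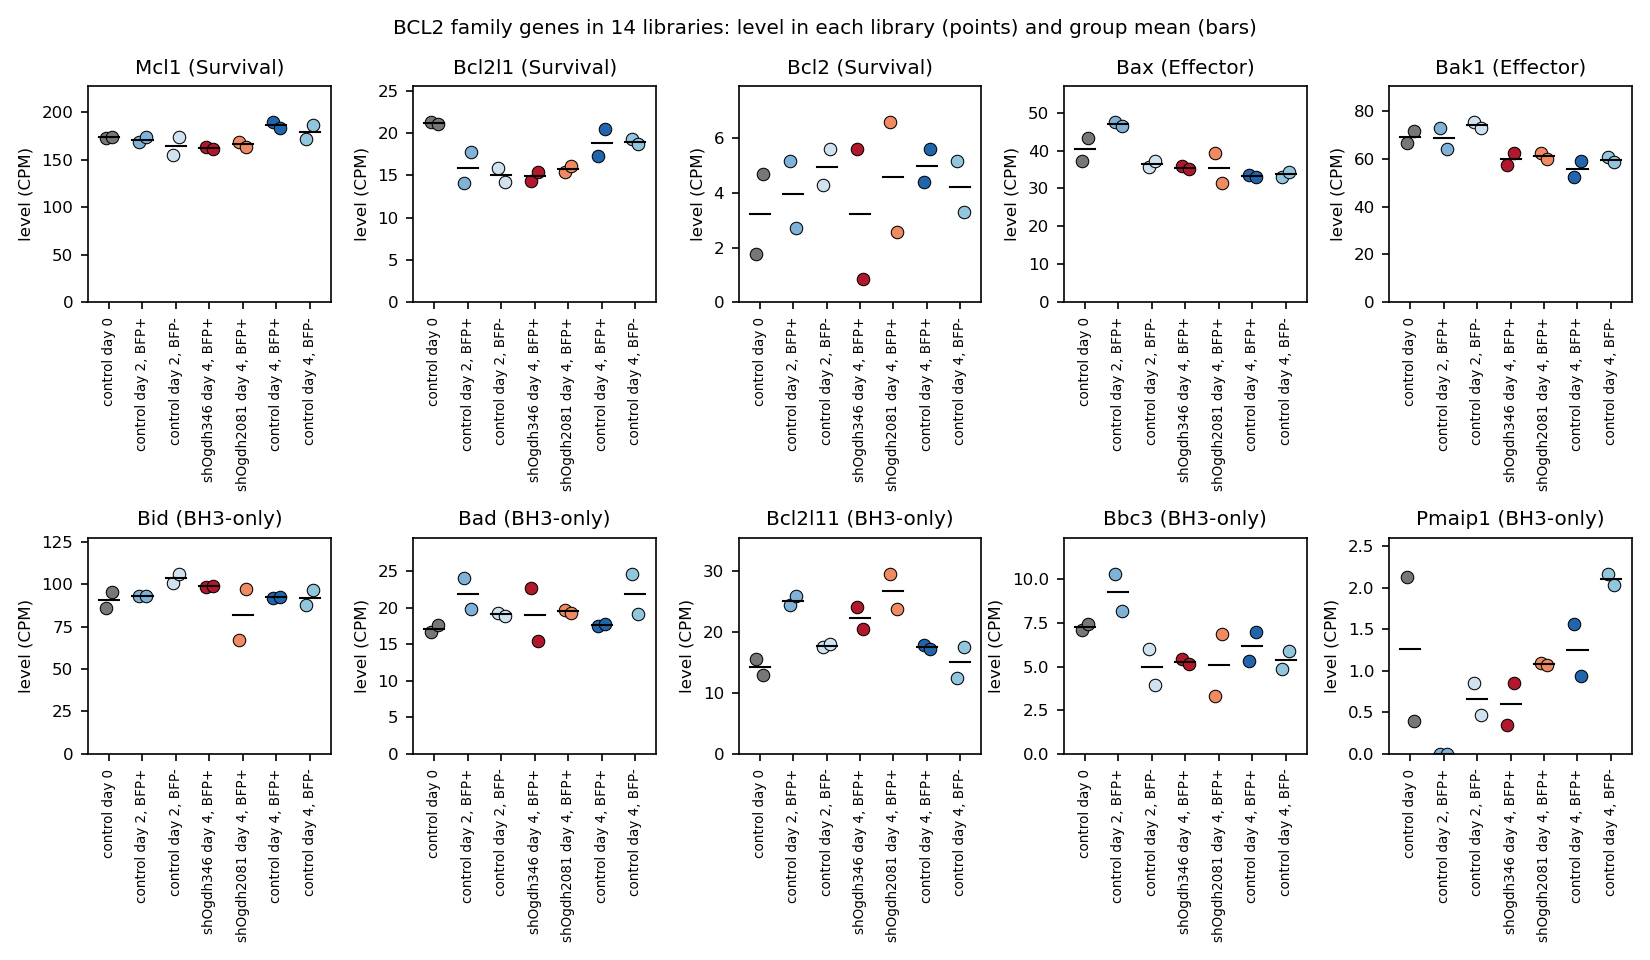
Level (CPM, linear axis from 0) of each of the 10 BCL2 family genes by group, with 1 point per library and a bar at the group mean. Each panel has its own scale. Mcl1 lies highest in every library, Bcl2l11 is highest in the hairpin groups and in BFP positive cells at day 2, and Pmaip1 is at or under 2.17 CPM throughout.

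The 10 genes are scattered over the genome. On GRCm38, as in the deposited table, the survival genes are Mcl1 (ENSMUSG00000038612, chr3:95658788-95663176, plus strand), Bcl2l1 (ENSMUSG00000007659, chr2:152780668-152831728, minus strand) and Bcl2 (ENSMUSG00000057329, chr1:106538178-106714274, minus strand). The effectors are Bax (ENSMUSG00000003873, chr7:45461697-45466898, minus strand) and Bak1 (ENSMUSG00000057789, chr17:27019810-27029009, minus strand). The BH3-only genes are Bid (ENSMUSG00000004446, chr6:120891930-120916853, minus strand), Bad (ENSMUSG00000024959, chr19:6941861-6951898, plus strand), Bcl2l11 (ENSMUSG00000027381, chr2:128126038-128162547, plus strand), Bbc3 (ENSMUSG00000002083, chr7:16308393-16318205, plus strand) and Pmaip1 (ENSMUSG00000024521, chr18:66458604-66465550, plus strand).

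Counts are per gene over all exons, so the long and short forms of Bcl2l1 and Mcl1, whose proteins are known to have opposite effects on survival, were not separated. Bak1 shares 614 exonic bases with Ggnbp1, Bid shares 628 with Bcl2l13 and Bad shares 524 with Gpr137, each on the opposite strand. No source used here gives the strand setting of the counting, so part of the reads of these 3 genes may belong to the neighbour.

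Bcl2l11, Bax and Bak1 were the 3 members that edgeR called for any difference among the 7 groups (49.3% of all tested genes called, 1 member by DESeq2). Their promoters and that of Mcl1, the most abundant member, are shown. Each runs over 250 bases before to 50 bases after the RefSeq transcript start (RefSeq, GRCm38.p6), written 5′ to 3′ on the strand of the gene, and capitals mark a motif match on either strand.
Bcl2l11, chr2:128125788-128126087, plus strand: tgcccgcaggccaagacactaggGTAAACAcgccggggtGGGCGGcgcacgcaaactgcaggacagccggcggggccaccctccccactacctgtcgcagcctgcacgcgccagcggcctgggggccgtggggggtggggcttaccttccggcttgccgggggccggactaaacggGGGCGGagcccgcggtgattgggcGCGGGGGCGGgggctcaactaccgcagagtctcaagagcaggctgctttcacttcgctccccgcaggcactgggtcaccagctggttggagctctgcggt
Bax, chr7:45466849-45467148, minus strand: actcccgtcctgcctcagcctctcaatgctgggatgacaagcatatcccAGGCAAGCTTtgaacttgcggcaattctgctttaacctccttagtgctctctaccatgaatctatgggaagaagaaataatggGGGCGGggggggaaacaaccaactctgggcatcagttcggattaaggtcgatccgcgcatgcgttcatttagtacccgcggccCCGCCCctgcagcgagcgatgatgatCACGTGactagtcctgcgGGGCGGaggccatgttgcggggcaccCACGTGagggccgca
Bak1, chr17:27028578-27028877, minus strand: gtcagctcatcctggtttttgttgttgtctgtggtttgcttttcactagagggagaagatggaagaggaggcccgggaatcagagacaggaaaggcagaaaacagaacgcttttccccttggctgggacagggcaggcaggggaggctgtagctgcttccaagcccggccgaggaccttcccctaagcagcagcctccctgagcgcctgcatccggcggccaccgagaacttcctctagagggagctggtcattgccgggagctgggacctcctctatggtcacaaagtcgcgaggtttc
Mcl1, chr3:95658471-95658770, plus strand: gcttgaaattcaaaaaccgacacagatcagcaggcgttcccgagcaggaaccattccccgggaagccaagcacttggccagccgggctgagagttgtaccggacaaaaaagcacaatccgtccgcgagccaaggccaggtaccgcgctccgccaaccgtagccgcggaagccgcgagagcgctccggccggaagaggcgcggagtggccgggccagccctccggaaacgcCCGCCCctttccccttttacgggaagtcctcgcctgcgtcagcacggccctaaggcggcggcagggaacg
The capitals are the GC box GGGCGG in Bcl2l11 (3 matches), Bax (3) and Mcl1 (1), the forkhead site TGTTTAC in Bcl2l11 (1 match, at base -227 from the start), the EGR site GCGNGGGCG in Bcl2l11 (1 match, at -50), the E-box CACGTG in Bax (2 matches) and a p53 half-site in Bax (1 match, at -201). The EGR match overlaps a GC box. Of 32851 RefSeq promoters of the same length, 35.7% hold the GC box, 3.65% the forkhead site, 5.55% the EGR site, 7.15% the E-box and 8.36% the p53 half-site. The Bak1 window held none of these letters, and its RefSeq start lies 382 bases from the start in the deposited table. No window held the letters AGATAA of a GATA factor site, the letters TGATGNAA of an ATF4 site or the letters TATAAA of a core promoter box. GC content was 71.0% for Bcl2l11, 57.3% for Bax, 58.3% for Bak1 and 65.7% for Mcl1, beside a median of 52.7% over all promoters. A match describes the letters only, and binding was not measured.

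The first question was whether loss of Ogdh moved the family. With both Ogdh hairpins set against control BFP positive cells at day 4, edgeR called none of the 9 tested members, beside 16.1% of all tested genes. With only 9 members, a count of 0 does not set the family apart from that share. The edgeR count of 0 came with 2 members at an unadjusted p under 0.05 (Bcl2l11 and Mcl1), and DESeq2 also called 0, with 0 at an unadjusted p under 0.05 and no adjusted p for 2 members. The median log2 fold change of the 9 members was 0.02, and that of all tested genes was 0.00. The values of each role follow, with 95% intervals, since a p above the threshold does not show that levels were equal.

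Among the survival genes, Mcl1 measured 164 and 161 (shOgdh346) and 169 and 163 CPM (shOgdh2081), against 190 and 183 CPM in control BFP positive cells at day 4. All 4 hairpin libraries lay below both control libraries, a separation that 36.1% of all tested genes showed in one direction or the other. The log2 fold change was -0.19 ± 0.08 (SE; 95% interval -0.34 to -0.03, edgeR adjusted p = 0.0934), a 12.2% lower estimate. Bcl2l1 measured 14.3 and 15.4 (shOgdh346) and 15.4 and 16.1 CPM (shOgdh2081), against 17.2 and 20.5 CPM. Its libraries were separated in the same direction, with a log2 fold change of -0.29 ± 0.19 (interval -0.66 to 0.08, edgeR adjusted p = 0.309). Bcl2 measured 5.59 and 0.856 (shOgdh346) and 6.58 and 2.57 CPM (shOgdh2081), against 4.39 and 5.60 CPM. The Bcl2 groups overlapped, some of its values rest on 1 to 14 counts, and the interval of -1.12 to 0.50 around the log2 fold change of -0.31 leaves its direction undetermined at this depth.

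The effectors were close in both arms. Bax measured 35.8 and 35.1 (shOgdh346) and 39.5 and 31.5 CPM (shOgdh2081), against 33.5 and 33.1 CPM in control BFP positive cells (log2 fold change 0.04 ± 0.14, interval -0.23 to 0.32, edgeR adjusted p = 0.882). Bak1 measured 57.5 and 62.5 (shOgdh346) and 62.5 and 60.1 CPM (shOgdh2081), against 52.3 and 59.2 CPM (0.11 ± 0.11, interval -0.11 to 0.33, edgeR adjusted p = 0.551). Both pairs of groups overlapped. The interval of each gene leaves out a change of 1.5-fold or more in either direction.

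Among the BH3-only genes, Bcl2l11 stood apart in its values but did not pass the test. It measured 24.1 and 20.5 (shOgdh346) and 29.6 and 23.8 CPM (shOgdh2081), against 17.9 and 17.3 CPM in control BFP positive cells at day 4. Every hairpin library was above both control libraries, a separation that 36.1% of all tested genes showed in one direction or the other. The log2 fold change was 0.46 ± 0.18 (interval 0.10 to 0.81, edgeR adjusted p = 0.0720), an estimate 37.1% higher. Alternatives put it in 2 cases past the threshold, but the first of these is another comparison, since BFP negative cells also differ by induction. Against BFP negative control cells at day 4, which held 12.5 and 17.6 CPM, the log2 fold change was 0.60 ± 0.15 (edgeR adjusted p = 0.00192), and Bcl2l11 was then the only 1 of 9 members called, beside 20.8% of all tested genes. With all libraries thinned to equal depth it was 0.94 (edgeR adjusted p = 0.0317). Thinning was a single random draw that left fewer counts in the deeper libraries, so this value rests on that draw. Over 25 alternatives, these 2 included, the log2 fold change ran over 0.36 to 0.94, and no other alternative passed the threshold.

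The other BH3-only genes showed no separation. Bid, which caspase-8 cleaves into its active form, measured 98.5 and 99.3 (shOgdh346) and 66.9 and 97.0 CPM (shOgdh2081), against 92.1 and 92.8 CPM (log2 fold change 0.02 ± 0.10, interval -0.17 to 0.22, edgeR adjusted p = 0.903). The low value of 66.9 CPM is that of the shallowest library, with 61 counts. Bad, which survival kinases silence by phosphorylation, measured 22.7 and 15.4 (shOgdh346) and 19.7 and 19.3 CPM (shOgdh2081), against 17.5 and 17.7 CPM (0.20 ± 0.19, edgeR adjusted p = 0.500). Bbc3 measured 5.42 and 5.13 (shOgdh346) and 3.29 and 6.87 CPM (shOgdh2081), against 5.33 and 6.99 CPM (-0.05 ± 0.32, edgeR adjusted p = 0.937). The Bbc3 interval of -0.69 to 0.58 is wide, since its counts were 3 to 32 in these libraries.

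**Figure D2:**
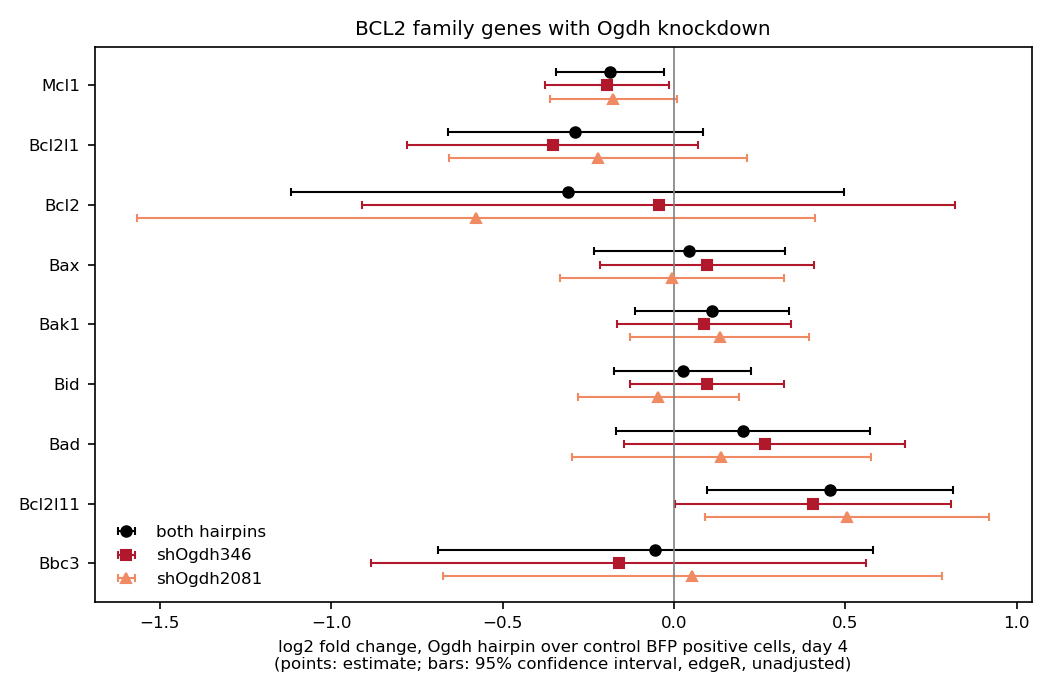
Log2 fold change of the 9 tested BCL2 family genes for both Ogdh hairpins and for each hairpin against control BFP positive cells at day 4, with 95% intervals. The Bcl2l11 interval for both hairpins spans 0.10 to 0.81 and that of Mcl1 spans -0.34 to -0.03, while no member passed the adjusted threshold.

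Taken one hairpin at a time, shOgdh346 gave 0 calls among the members (11.2% of all tested genes called, 2 members at an unadjusted p under 0.05, 0 by DESeq2) and shOgdh2081 gave 0 (11.6%, 1 at an unadjusted p under 0.05, 0 by DESeq2). DESeq2 gave no adjusted p for 5 of the 9 members with either hairpin. Bcl2l11 had a log2 fold change of 0.41 ± 0.20 with shOgdh346 and 0.50 ± 0.21 with shOgdh2081 (edgeR adjusted p = 0.197 and 0.105). Mcl1 had -0.20 ± 0.09 and -0.18 ± 0.09 (edgeR adjusted p = 0.158 and 0.216). The 2 hairpin comparisons share their control libraries. Between the hairpins, shOgdh2081 minus shOgdh346, edgeR called 0 members (0.0834% of all tested genes called, 0 at an unadjusted p under 0.05, 0 by DESeq2), and the difference for Bcl2l11 was 0.10 with an interval of -0.28 to 0.48.

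Set against each other per kilobase, Bcl2l11 stood at a log2 ratio to Mcl1 of -3.99 and -4.20 with shOgdh346 and of -3.74 and -4.01 with shOgdh2081, against -4.64 and -4.64 in control BFP positive cells at day 4. The ratio of this death gene to this survival gene was therefore higher in each of the 4 hairpin libraries than in either control library. It was also -4.02 and -3.98 in control BFP positive cells at day 2, inside the range of the hairpin libraries. The ratio is given as a description without a test, since both genes were picked with their values known. The ratio of Bak1 to Bax stayed at 0.905 to 1.39 over the 14 libraries.

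**Figure D3:**
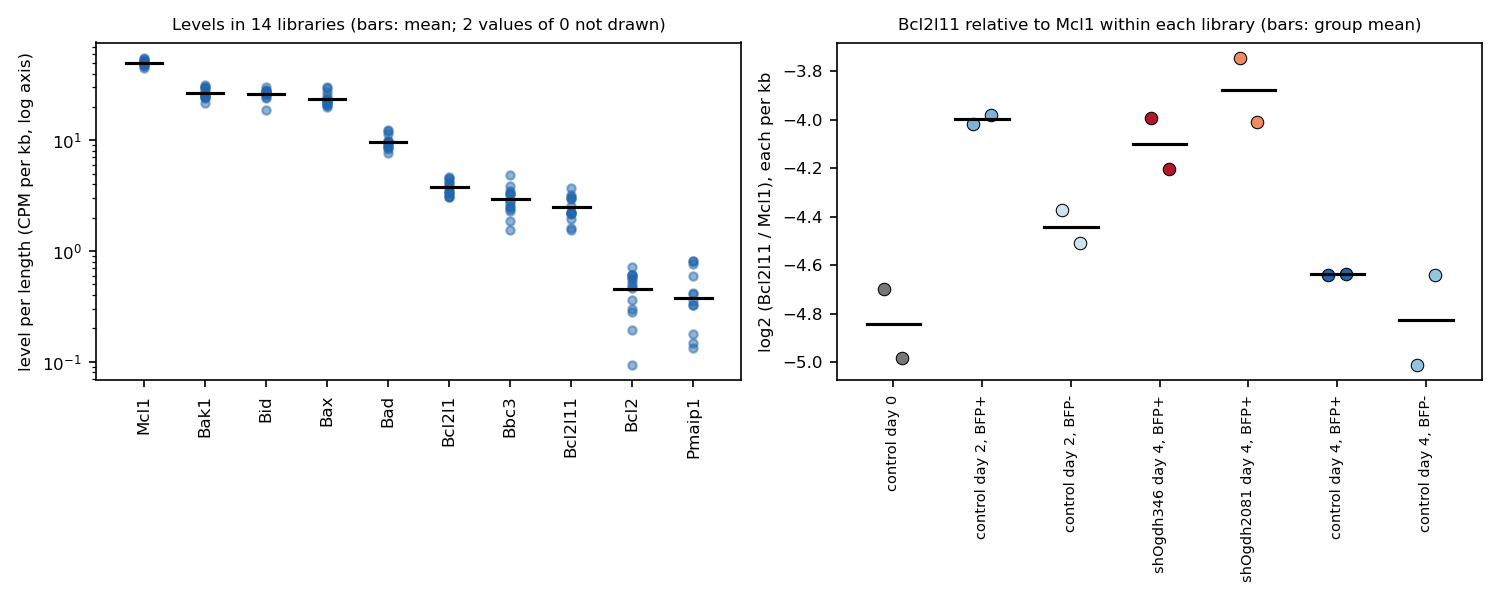
Left, level of each member in CPM per kilobase (log axis) in the 14 libraries, with a bar at the mean and 2 Pmaip1 values of 0 not drawn. Right, log2 ratio of Bcl2l11 to Mcl1 per kilobase in each library by group, with a bar at the group mean. The 4 hairpin libraries and both control BFP positive libraries at day 2 lie at -4.20 or above, and the other control libraries lie at -4.37 or below.

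Pmaip1 was the member near the floor, with 56 counts in all 14 libraries together. It measured 0.349 and 0.856 (shOgdh346) and 1.10 and 1.07 CPM (shOgdh2081), against 1.57 and 0.933 CPM in control BFP positive cells at day 4, where these values rest on 1 to 5 counts. Control BFP negative cells held 2.17 and 2.04 CPM at day 4 and 0.856 and 0.466 CPM at day 2, and day 0 cells held 2.13 and 0.391 CPM. Control BFP positive cells at day 2 had 0 counts in both libraries, for which the upper limit is 3 counts (95% confidence, counting error only), equal to 1.03 and 2.04 CPM. These limits overlap the values of most other groups. In a fit without the filter no comparison called Pmaip1 (3 comparisons at an unadjusted p under 0.05), and the lowest adjusted p was 0.0846 (edgeR, control BFP positive cells at day 2 against day 0).

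The control cells alone allow the family to be followed through induction of a hairpin that targets no mouse gene. At day 2, BFP positive against BFP negative control cells gave 0 member calls with edgeR (6.23% of all tested genes called, 3 members at an unadjusted p under 0.05, 0 by DESeq2). Bbc3 measured 10.3 and 8.18 CPM in BFP positive cells, against 5.99 and 3.96 CPM in BFP negative cells (log2 fold change 1.02 ± 0.35, interval 0.32 to 1.72, edgeR adjusted p = 0.0669). Bax measured 47.5 and 46.3 CPM, against 35.5 and 37.3 CPM (0.36 ± 0.15, edgeR adjusted p = 0.153). Bcl2l11 measured 24.4 and 25.9 CPM, against 17.6 and 18.0 CPM (0.49 ± 0.21, edgeR adjusted p = 0.164). In these 3 genes both BFP positive libraries were above both BFP negative libraries, a separation that 45.9% of all tested genes showed in either direction. Bad was separated the same way, with 24.1 and 19.8 CPM, against 19.3 and 18.9 CPM (0.24 ± 0.21, edgeR adjusted p = 0.577). Bid, also pro-apoptotic, was separated the other way, with 93.0 and 93.4 CPM, against 101 and 106 CPM (-0.16 ± 0.11, edgeR adjusted p = 0.486). Bak1 (-0.08 ± 0.12) and the 3 survival genes overlapped.

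At day 4 the same contrast in control cells gave 0 member calls (0.0741% of all tested genes called, 0 at an unadjusted p under 0.05, 0 by DESeq2). Bbc3 then differed by 0.10 ± 0.32, Bax by -0.02 ± 0.14 and Bcl2l11 by 0.14 ± 0.19 on the log2 scale. The difference between the days was tested itself, in a contrast added after seeing the data. It called 0 of the 9 members with edgeR (0.658% of all tested genes called, 0 members at an unadjusted p under 0.05), and the values for day 2 minus day 4 were 0.93 ± 0.47 for Bbc3 (edgeR adjusted p = 0.516), 0.39 ± 0.21 for Bax (edgeR adjusted p = 0.552) and 0.34 ± 0.28 for Bcl2l11 (edgeR adjusted p = 0.772).

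Bcl2l11 rose in BFP positive control cells at day 2 relative to untreated day 0 cells. It measured 24.4 and 25.9 CPM at day 2, against 15.6 and 12.9 CPM at day 0, without overlap, as in 58.5% of all tested genes. The log2 fold change was 0.80 ± 0.22 (interval 0.36 to 1.25, a rise of 74.3%, edgeR adjusted p = 0.00764), and Bcl2l11 was the 1 member of 9 called, beside 17.9% of all tested genes. The call was lost with DESeq2 (0.81, adjusted p = 0.0735) and after thinning to equal depth (0.71, edgeR adjusted p = 0.173). It was also lost without replicate 1 of the day 2 BFP positive cells (0.85) and without replicate 2 of the day 0 cells (0.68). The direction was always the same. The call was kept in 20 of 24 alternatives, but many of these left out a library of another group, so the 20 are not independent support. Erythroid markers summed to 3400 and 3469 CPM in BFP positive cells at day 2, against 3591 and 3677 CPM at day 0, and their part in the rise was not tested. In BFP negative cells at day 2, edgeR called 0 members against day 0 (10.3% of all tested genes called, 1 at an unadjusted p under 0.05, 0 by DESeq2), and Bcl2l11 had 0.31 ± 0.22 there (edgeR adjusted p = 0.408).

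The gene at that unadjusted p was Bcl2l1, which measured 15.8 and 14.2 CPM in BFP negative cells at day 2, against 21.3 and 21.1 CPM at day 0 (log2 fold change -0.51 ± 0.20, interval -0.92 to -0.11, edgeR adjusted p = 0.0960). In BFP positive cells at day 2 it measured 14.1 and 17.7 CPM (-0.46 ± 0.22 against day 0, edgeR adjusted p = 0.149). All 4 day 2 libraries thus lay below both day 0 libraries for this survival gene, a separation seen in 51.1% of all tested genes for BFP negative and 58.5% for BFP positive cells, and neither comparison passed. The comparisons share the day 0 libraries. Mcl1 averaged 171 ± 3.84 CPM in BFP positive cells and 164 ± 13.4 CPM in BFP negative cells at day 2 (SD, n = 2), against 173 ± 0.704 CPM at day 0, with overlapping groups and log2 fold changes of -0.02 ± 0.09 and -0.06 ± 0.09.

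Bax fell in BFP positive control cells at day 4 relative to day 2. It measured 33.5 and 33.1 CPM at day 4, against 47.5 and 46.3 CPM at day 2, so the groups did not overlap (as in 52.9% of all tested genes), and day 0 cells held 37.3 and 43.4 CPM. Between days 4 and 2 it fell by 0.50 on the log2 scale (SE 0.16, interval -0.81 to -0.18, a change of -29.2%, edgeR adjusted p = 0.0274), and it was the 1 member of 9 called, beside 11.9% of all tested genes. The call was lost with DESeq2 (-0.50, adjusted p = 0.190), without a filter on low counts (-0.51, edgeR adjusted p = 0.0547), after thinning (-0.59, edgeR adjusted p = 0.203), and without replicate 1 (-0.52, edgeR adjusted p = 0.128) or replicate 2 (-0.50, edgeR adjusted p = 0.101) of the day 4 BFP positive cells or replicate 1 of the day 2 BFP positive cells (-0.48, edgeR adjusted p = 0.260). It was kept in 18 of 24 alternatives. Many of these left out a library of another group, which touches this comparison only through the shared spread, so the 18 are not independent support. Erythroid markers summed to 3425 and 3466 CPM at day 4, against 3400 and 3469 CPM at day 2. Over the same days Bcl2l11 measured 17.9 and 17.3 CPM at day 4, against 24.4 and 25.9 CPM at day 2 (-0.50 ± 0.21, edgeR adjusted p = 0.118), and Bbc3 measured 5.33 and 6.99 CPM, against 10.3 and 8.18 CPM (-0.67 ± 0.35, edgeR adjusted p = 0.217). The median log2 fold change of the 9 members between these days was -0.33, and that of all tested genes was 0.00.

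Bak1, the other effector, was lower at day 4 in its values without passing in a single comparison. In BFP positive cells it measured 52.3 and 59.2 CPM at day 4, against 73.0 and 64.1 CPM at day 2 (-0.33 ± 0.13, edgeR adjusted p = 0.0836). Against the 66.7 and 71.5 CPM of day 0 the log2 fold change was -0.32 ± 0.13 (edgeR adjusted p = 0.110). In BFP negative cells Bak1 measured 60.7 and 58.6 CPM at day 4, against 75.4 and 72.8 CPM at day 2 (-0.31 ± 0.11, edgeR adjusted p = 0.0546). The groups did not overlap in any of these 3 comparisons, a separation found in 52.9%, 53.7% and 45.4% of all tested genes in the same order. For BFP negative cells, edgeR called 0 members between days 4 and 2 (6.84% of all tested genes called, 1 at an unadjusted p under 0.05, 0 by DESeq2) and 0 between days 4 and 0 (8.03%, 0 at an unadjusted p under 0.05, 0 by DESeq2). For BFP positive cells it called 0 between days 4 and 0 (7.11%, 1 at an unadjusted p under 0.05, 0 by DESeq2). DESeq2 gave no adjusted p for 6 of the 9 members in either comparison of day 4 with day 0.

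When all 7 groups were tested together, 3 of the 9 members differed among them, beside 49.3% of all tested genes. These were Bcl2l11 (edgeR adjusted p = 0.000772), Bak1 (edgeR adjusted p = 0.0143) and Bax (edgeR adjusted p = 0.0361), of which DESeq2 called 1. Bcl2l11 ran over a 1.87-fold range of group means, with shOgdh2081 highest and day 0 lowest. Bbc3 ran over 1.86-fold, Bcl2 over 1.55-fold, Bcl2l1 over 1.43-fold, Bax over 1.41-fold, Bak1 over 1.33-fold, Bad over 1.28-fold and Bid over 1.26-fold. Mcl1 had the narrowest range among the 9 tested members, 1.15-fold, with control BFP positive cells at day 4 highest and shOgdh346 lowest.

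**Figure D4:**
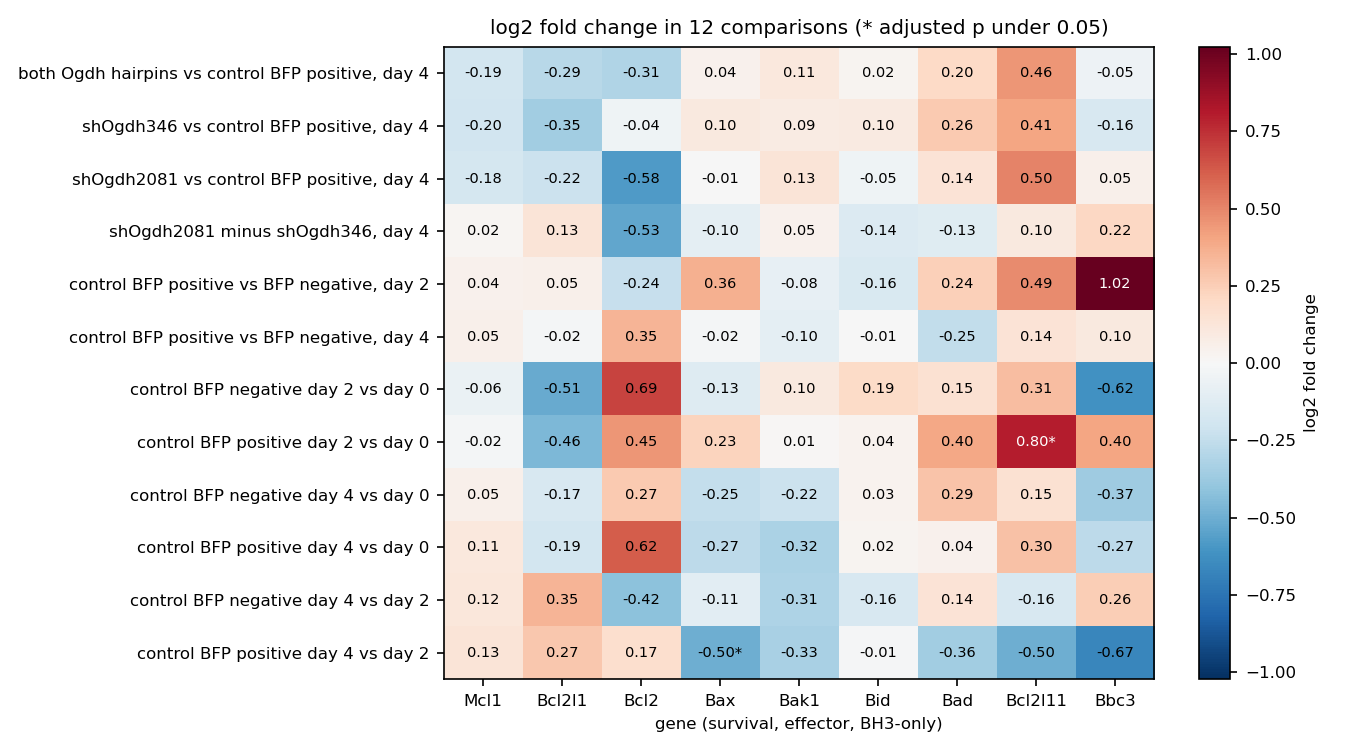
Log2 fold change of each tested member (columns, by role) in 12 comparisons (lines), printed in each cell and shown by colour, with an asterisk at an edgeR adjusted p under 0.05. The asterisks stand at Bcl2l11 in BFP positive cells at day 2 against day 0 (0.80) and at Bax in BFP positive cells at day 4 against day 2 (-0.50), and the Mcl1 values lie between -0.20 and 0.13.

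The genes whose 14 library values ran most like those of Bcl2l11 included Canx (Pearson r = 0.913) and Ccdc18 (0.910), and those most like Mcl1 were Ccz1 (0.939), Bzw1 (0.893) and Srsf3 (0.853). These r values are among the highest of tested genes of at least 20 CPM, run over 14 libraries that share groups and depth, and are given as a description.

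Other genes of the pathway were read from lists, to be set beside the 16.1% of all tested genes called with both hairpins. Of 15 other BCL2 family genes, 7 were tested and 1 fell with both hairpins: Bok, an effector relative of Bax, measured 5.14 and 5.42 (shOgdh346) and 5.48 and 8.15 CPM (shOgdh2081), against 12.5 and 12.6 CPM in control BFP positive cells (log2 fold change -0.96 ± 0.25, edgeR adjusted p = 0.00494). That call was lost without replicate 1 of the control cells (-0.96, edgeR adjusted p = 0.114) and after thinning (-0.48, edgeR adjusted p = 0.685). DESeq2 called 0 of the 7, Bok included, and gave no adjusted p for 3. The median edgeR log2 fold change of the 7 was -0.22. Of 19 genes of the apoptosome, the caspases and their inhibitors, all tested, 1 rose, 1 fell and 17 did not pass, with a median of 0.01. Birc2, which encodes the ubiquitin ligase cIAP1, rose by 0.48 ± 0.12 on the log2 scale (edgeR adjusted p = 0.00343), and the call was lost without replicate 1 of the control cells (0.30, edgeR adjusted p = 0.328). Htra2, which encodes a mitochondrial protease, fell by 0.31 (SE 0.10, edgeR adjusted p = 0.0188), a call lost without replicate 2 of the control cells (-0.20, edgeR adjusted p = 0.318), without replicate 1 of shOgdh346 (-0.31, edgeR adjusted p = 0.0795), without the shallower library of each hairpin (-0.28, edgeR adjusted p = 0.0642) and with DESeq2 (-0.32, adjusted p = 0.0906). Of 9 genes of death receptor signalling, 7 were tested and edgeR called 0, with 1 at an unadjusted p under 0.05, 0 called by DESeq2 (3 with no adjusted p) and a median of -0.03.

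Regulators of the family were read next. Of 25 genes that act on transcription or turnover of family members, 22 were tested, 2 rose, 3 fell and 17 did not pass, with a median log2 fold change of -0.04, beside 16.1% of all tested genes called. Foxo3, a forkhead factor known to activate Bcl2l11 and Bbc3, averaged 164 CPM with shOgdh346 and 176 CPM with shOgdh2081, against 132 CPM in control BFP positive cells (0.37 ± 0.08, edgeR adjusted p = 0.00106), and the call was lost without replicate 1 of the control cells (0.28, edgeR adjusted p = 0.168). Usp9x, a deubiquitinase that stabilizes MCL1, averaged 339 CPM with shOgdh346 and 384 CPM with shOgdh2081, against 274 CPM (0.37 ± 0.08, edgeR adjusted p = 0.000241). Egr1, an immediate early transcription factor, averaged 64.0 CPM with shOgdh346 and 56.3 CPM with shOgdh2081, against 200 CPM (-1.69 ± 0.10, edgeR adjusted p = 8.35e-23). Pim1, a cytokine-induced kinase that phosphorylates BAD, averaged 12.5 CPM with shOgdh346 and 9.95 CPM with shOgdh2081, against 24.3 CPM (a change of -50.1%, edgeR adjusted p = 6.02e-05).

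Of 12 p53 targets outside the family, 10 were tested, 1 rose and 2 fell with both hairpins, beside 16.1% of all tested genes. The median log2 fold change of the 10 was -0.26. DESeq2 called 2 of the 10, not Btg2, and gave no adjusted p for 3. Perp, a membrane protein gene, averaged 26.7 CPM with shOgdh346 and 41.1 CPM with shOgdh2081, against 52.8 CPM in control BFP positive cells. It fell by 0.71 on the log2 scale (SE 0.13, edgeR adjusted p = 3.40e-05), and Aen, an apoptosis nuclease gene, fell by 0.54 (SE 0.13, edgeR adjusted p = 0.00219), a call lost without replicate 1 of the control cells (-0.54, edgeR adjusted p = 0.0785). Btg2, an antiproliferative gene, rose by 0.96 ± 0.31 (edgeR adjusted p = 0.0259), a call lost without any 1 of replicate 1 of shOgdh346 (0.97, edgeR adjusted p = 0.104), replicate 2 of shOgdh2081 (1.06, edgeR adjusted p = 0.0713) and replicate 1 or 2 of the control cells (1.08 and 0.88, edgeR adjusted p = 0.194 and 0.150), without the shallower library of each hairpin (0.93, edgeR adjusted p = 0.0528) and with a crossed replicate block (0.90, edgeR adjusted p = 0.0506). Thinning to equal depth also ended the calls of Birc2, Htra2, Foxo3, Pim1, Aen and Btg2 (edgeR adjusted p of 0.0667 to 0.257), with log2 fold changes of 0.43, -0.27, 0.29, -0.76, -0.60 and 1.72 in that order, all in the same direction as before. Beside these, 7 of 14 erythroid markers rose and none fell with both hairpins (16.1% of all tested genes called), among them Car1 (log2 fold change 1.49 ± 0.11, SE) and Hbb-bt (1.23 ± 0.17), and of 6 tested mast cell and basophil markers 2 rose (Ms4a2, 1.03 ± 0.11, and Il1rl1, 0.57 ± 0.08) and Gata2 fell by 1.03 (SE 0.09). The Hbb-bt call was lost against BFP negative control cells at day 4 (0.23, edgeR adjusted p = 0.172), and control BFP positive cells were themselves lower than BFP negative cells at day 4 in Hbb-bt (a change of -50.0%, edgeR adjusted p = 0.000717) and Hbb-bs (-39.8%, edgeR adjusted p = 1.77e-05), near-identical genes between which reads may have been split. Of 7 stromal markers, 3 were tested and 2 fell, and the list summed to 13.2 to 25.1 CPM in the hairpin libraries, against 30.8 and 33.2 CPM in control BFP positive cells. Of 9 lymphoid markers none passed the filter and 6 had no count in any library. How far these shifts of cell markers bear on the values of the BCL2 family was not tested.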

How the data were processed

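RNA was measured in 14 libraries of 7 groups of 2, grouped by sample titles. The deposited values are raw whole-number counts per gene; per the labels' protocols, polyA RNA was made into TruSeq libraries and sequenced as single-end reads of 76 bases. Those protocols also name HTSeq, an RPKM matrix and a human build, whereas the submitters' processing notes list STAR 2.6.1a and featureCounts 1.6.3 beside Trimmomatic 0.36 and FastQC 0.11.5, with mm10 and GRCm38; the table holds mouse Ensembl identifiers with GRCm38 coordinates. The transcript length deposited by the authors (another unit, bases) served only for levels per kilobase. No source used here gives the strand or multi-mapping settings.

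Low-count genes were removed by filterByExpr (7 groups; 10791 genes kept). TMM factors were 0.968 to 1.013. Testing used edgeR 4.0.16 (quasi-likelihood; R 4.3.3, limma 3.58.1) in 1 model of all libraries with the group as its only term, which had 7 residual and 57.6 prior degrees of freedom and a common coefficient of variation of 5.04%. Tests were two-sided, with Benjamini-Hochberg adjustment over all tested genes and calls at an adjusted p under 0.05. An exact permutation test of 2 against 2 cannot go below p = 0.333 and was not used. CPM is edgeR's cpm of the deposited counts of tested genes, with TMM-scaled library sizes. Depth was 913482 to 10271698 counts, and replicates differed by more than sampling noise (chi-square per degree of freedom 1.16 to 2.71 over genes with at least 20 counts). On simulated counts the script was checked. DESeq2 1.42.0, other scalings, other filters, a length offset, thinning, a replicate block and leaving out each library were alternatives. Thinning was a single random draw to the depth of the shallowest library. All 10 members were named; other list genes were named where called with both hairpins, up to 3 or 4 per list by size of change, the most alike genes as the 3 of highest r; 2 genes these rules chose are not reported here. The members, lists and tests were chosen with earlier results of these data known, so none counts as independent support. RefSeq promoters of 9 members were matched by symbol (Pmaip1 was not used here). No variant or sample was left out.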

Additional observations from a re-analysis of the deposited data

How the results depend on the processing

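Each count of members called was repeated under every alternative. With both hairpins against the control it was 0, but 1 after thinning and 1 against BFP negative control cells (Bcl2l11 in both). For BFP positive cells at day 2 against day 0 it was 1, but 0 with DESeq2, 0 after thinning, and 0 to 1 when 1 library was left out. For BFP positive cells at day 4 against day 2 it was 1, but 0 with DESeq2, 0 without a filter, and 0 to 1 when 1 library was left out; after thinning it was Bak1 and not Bax. For BFP negative cells at day 4 against day 2 it was 0, and 0 to 1 when 1 library was left out (Bak1). For any difference among groups it was 3, but 1 with DESeq2, 1 after thinning and 2 to 3 when 1 library was left out. Over all genes, 1735 were called with both hairpins, but 708 with DESeq2, 680 after thinning and 461 to 1899 when 1 library was left out. The causes were not tested. For both hairpins, fold changes that turned sign were all in uncalled members: Bcl2 (0.038 against BFP negative cells, and -1.52 to 0.19 when 1 library was left out), Bid (-0.048 after thinning, -0.0093 with the crossed block, -0.19 to 0.086 with 1 left out), Bad (-0.048 against BFP negative cells, -0.026 to 0.25 with 1 left out) and Bbc3 (0.027 without the shallower library of each hairpin, 0.042 against BFP negative cells, -0.51 to 0.11 with 1 left out). Of 1190 single-gene alternatives, 1101 kept direction and call, 72 lost the call, 6 gained it and 11 turned sign. Many of these left out a library of a group outside the comparison, where little change was likely.

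Samples of the same replicate number did not deviate alike throughout. Over 21 pairs of groups the same-number correlation of deviations ran over -0.235 to 0.305, with 4 above 0.1 and 5 below -0.1. These values do not settle whether the samples were paired. With the replicate number as a block the member counts were the same except for BFP negative cells at day 4 against day 2, where 1 was called (Bak1), and 1850 genes were called with both hairpins. A crossed pairing of the shOgdh346 numbers, chosen after seeing the data, gave 1630 genes and 0 members. This pairing follows the numbers in the library names. There, replicate 2 of shOgdh346 falls in a run with replicate 1 of the other groups, and its replicate 1 with their replicate 2. No label says what the runs stand for. Both shallow hairpin libraries fall in the first run, so run and depth cannot be told apart within the hairpin groups. Depth limits the low members: Bcl2, Bbc3 and Pmaip1 had 1 to 34, 3 to 61 and 0 to 21 counts per library.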

Other observations

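Other BCL2 family and regulator genes moved in control BFP positive cells at day 2. These were chosen after their values were seen. Bnip3, a hypoxia-inducible relative that acts in mitophagy, averaged 8.90 CPM (7.57 to 10.2) in BFP positive cells at day 2, against 1.31 CPM (1.07 to 1.56) at day 0. It rose by 2.67 ± 0.53 on the log2 scale (edgeR adjusted p = 0.000128), and it fell by 2.48 (SE 0.51, edgeR adjusted p = 0.000361) at day 4 relative to day 2, to a mean of 1.41 CPM. The day 0 values are near the floor, since 3 counts make 1.07 and 1.17 CPM in those libraries. At day 2 Bnip3 was above BFP negative cells by 1.23 ± 0.40 (edgeR adjusted p = 0.0488), a call close to the threshold. It was lost with DESeq2 (1.38, adjusted p = 0.399), with library totals alone and without the shallower library of each hairpin. The call was kept in only 7 of 23 alternatives, and in 1 of the 14 that left out 1 library. The direction was the same in all 23. Bik, a BH3-only gene, averaged 15.2 CPM (14.1 to 16.4) in BFP positive cells at day 2, against 24.7 CPM (23.8 to 25.6) at day 0. It fell by 0.73 (SE 0.22, edgeR adjusted p = 0.0148), a call lost with DESeq2 (-0.72, adjusted p = 0.133), after thinning to equal depth (-0.32, edgeR adjusted p = 0.636), without replicate 1 of the day 2 cells (-0.60, edgeR adjusted p = 0.255) and without replicate 1 of the day 0 cells (-0.67, edgeR adjusted p = 0.108).

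Foxo3 averaged 180 CPM in control BFP positive cells and 169 CPM in control BFP negative cells at day 2, against 125 CPM at day 0. It rose in BFP positive cells by 0.53 ± 0.10 (edgeR adjusted p = 4.60e-05) and in BFP negative cells by 0.42 ± 0.09 (edgeR adjusted p = 0.00149), comparisons that share the day 0 libraries. In BFP positive cells it fell by 0.46 (SE 0.10, edgeR adjusted p = 0.000578) at day 4 relative to day 2. That call was lost without replicate 1 of the day 4 cells (-0.37) and after thinning (-0.41, edgeR adjusted p = 0.0595). Foxo3 also fell in BFP negative cells over the same days, with a log2 fold change of -0.32 ± 0.09 (edgeR adjusted p = 0.0129). Of the 22 tested regulators, 5 rose and 3 fell in BFP positive cells at day 2 relative to day 0, beside 17.9% of all tested genes called there.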
